A study of Mus musculus with 48 samples.

Results

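The 6 genes described here encode transcription factors of the primitive streak, the T-box factors T (brachyury) and Eomes and the homeodomain factors Mixl1, Lhx1, Evx1 and Gsc. They were taken by name, 6 of the 23284 gene symbols of the table, and all 6 had a row. Each was measured in 48 single mouse cells by RNA sequencing. The cells came from embryonic stem cells of strain 129P2/OlaHsd with a doxycycline-inducible Mesp1, left to differentiate in floating aggregates called embryoid bodies. Doxycycline, at 500 ng/ml, was present in all 48 cases between days 2.25 and 3.25 of culture. Live cells that excluded propidium iodide were sorted on day 4, and a Fluidigm C1 instrument, which isolates cells in microfluidic chambers, caught them singly. The labels describe the cells as Mesp1-induced mesoderm, put all of them in 1 group and name no separate cultures or clones. The cells therefore stand as 1 sample: they are described, no p-value was made from them, and no uninduced cells are analysed here. Mesp1 was detected in 30 of the 48 cells. Of the cardiac and lateral plate genes, Gata4 and Gata6 were detected in 33 cells each, Pdgfra in 31, Hand1 in 26, Isl1 in 25 and Tbx20 in 9. Paraxial genes ran from Aldh1a2 in 21 cells, Dll3 in 20 and Tbx6 in 13 to Tcf15 in 7, Meox1 in 6 and Msgn1 in 5, and hemangiogenic genes from Etv2 in 26 to Tal1 in 8. Of the 5 endoderm genes, Cer1 was detected in 17 cells, Foxa2 in 12, Apoa1 in 3, Spink3 in 2 and Sox17 in 1. Of the 8 pluripotency genes, Lin28a was detected in 48 cells, Dnmt3b in 47, Nanog in 46, Pou5f1 in 26, Dppa5a in 21, Sox2 in 18, Utf1 in 9 and Esrrb in 6.

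The primitive streak is the site where cells of the epiblast lose epithelial contacts and move inward to form mesoderm and definitive endoderm. Nodal, WNT and BMP signals induce its transcription factors, which switch on genes of migration and of the first lineages, and most are silenced again as cells move on. T is used along the whole streak and later in the notochord and tail bud. Eomes is needed for cells to leave the streak and for cardiac mesoderm and definitive endoderm. Mixl1 and Lhx1 act in mesendoderm, Lhx1 mainly in its anterior part, Evx1 marks the posterior streak, and Gsc marks the anterior streak and the organizer.

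The promoter windows of 4 members are shown: T and Evx1, which hold the motifs described below, and Eomes and Lhx1, the pair of members with the highest rho. The Evx1 window also lies within an antisense gene. Each runs from 250 bases before to 50 bases after the start of the gene, 5′ to 3′ on the strand of the gene, from RefSeq on build GRCm38.p6. The table of windows held 5 of the 6 members. Capitals mark the T-box core AGGTGT and the TCF/LEF core CTTTGA, searched on both strands.
T (chr17:8434173-8434472, plus strand): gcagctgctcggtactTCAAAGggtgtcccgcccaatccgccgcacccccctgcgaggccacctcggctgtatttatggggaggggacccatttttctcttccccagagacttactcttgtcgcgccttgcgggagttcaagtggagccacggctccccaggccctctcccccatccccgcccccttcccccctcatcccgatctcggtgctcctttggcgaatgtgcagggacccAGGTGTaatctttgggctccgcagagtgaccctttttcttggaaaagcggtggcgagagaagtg
Evx1 (chr6:52313248-52313547, plus strand): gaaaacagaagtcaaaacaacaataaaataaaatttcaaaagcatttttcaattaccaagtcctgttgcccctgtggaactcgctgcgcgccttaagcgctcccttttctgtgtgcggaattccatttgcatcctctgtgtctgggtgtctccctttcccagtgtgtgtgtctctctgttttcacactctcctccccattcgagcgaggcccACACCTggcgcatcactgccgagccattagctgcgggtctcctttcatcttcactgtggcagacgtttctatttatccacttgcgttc
Eomes (chr9:118477939-118478238, plus strand): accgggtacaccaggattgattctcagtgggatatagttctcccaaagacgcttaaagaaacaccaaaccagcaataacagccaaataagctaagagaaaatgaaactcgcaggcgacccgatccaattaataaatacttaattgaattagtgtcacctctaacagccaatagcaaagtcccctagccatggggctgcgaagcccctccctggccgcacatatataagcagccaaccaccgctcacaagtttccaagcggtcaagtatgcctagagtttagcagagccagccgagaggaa
Lhx1 (chr11:84525485-84525784, minus strand): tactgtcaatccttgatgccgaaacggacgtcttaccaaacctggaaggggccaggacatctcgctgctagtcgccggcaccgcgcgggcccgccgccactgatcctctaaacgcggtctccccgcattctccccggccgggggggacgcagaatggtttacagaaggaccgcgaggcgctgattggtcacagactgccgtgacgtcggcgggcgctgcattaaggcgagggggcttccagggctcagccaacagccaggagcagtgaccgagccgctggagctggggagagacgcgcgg

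The T window held the T-box core once, starting at base -14 from the gene's start, and the TCF/LEF core once, on the reverse strand from base -234. The Evx1 window held the T-box core once, on the reverse strand from base -38. In both windows the T-box core overlaps an E-box. The windows of Eomes, Lhx1 and Gsc held neither. Over all 32851 windows of 300 bases, 13.7% held the T-box core and 16% the TCF/LEF core. The E-box CANNTG, the general letters read by basic helix-loop-helix factors such as Mesp1, was in the windows of T, Evx1 and Gsc, not in those of Eomes and Lhx1, and in 72.3% of all windows. The sequence TAATCC, recognised by homeodomains of the Gsc and Otx2 type, and the FOXH1-like AATNCACA were in none of the 5 windows, and in 7.06% and 3.60% of all. These are matches of letters only.

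The values were taken to be FPKM (fragments per kilobase of transcript and per 1000000 mapped fragments), since their unit is not named. On that reading, levels of different genes can be set side by side. A gene counted as detected in a cell at 1 FPKM or more. Depth is not stated. The smallest steps between low values, multiplied by annotated transcript length, put it at an estimated 2.45 to 4.00 times 1000000 fragments per cell. By that estimate 1 FPKM in the median cell is worth 4.23 fragments for Gsc and 12.8 for Lhx1, with the longest annotated transcript of each. Cells had from 4788 to 7010 detected genes. Cells with higher numbers in their labels had fewer detected genes (Spearman's rho = -0.82), and 7 cells had fewer than 5189, a limit of 3 median absolute deviations below the median. What the label number stands for is not stated. Values are therefore also given for 25 cells with label numbers up to 48 and 23 above, and with those 7 cells left out where this matters. All 7 have label numbers above 48, so the 2 checks are not independent. A value of 0 is reported as listed, since Hprt, a gene that every cell uses, was also listed at 0 in 13 cells.

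Lhx1 and Eomes were detected in most cells, Mixl1 and T in more than 50% of them, and Evx1 and Gsc in a minority. Of the 6 members, 5 reached 1 FPKM in at least 25% of cells, which 35.8% of all symbols did. The shares carry exact Clopper-Pearson 95% intervals, which cover counting error only.

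T (chromosome 17, 8434423 to 8442496, plus strand, protein coding) was detected in 26 of 48 cells, or 54.2% (39.2% to 68.6%). The lowest value was 0, the median 1.90 and the highest 473 FPKM, and the upper quartile was 43.6 FPKM. It was listed at 0 in 17 cells, was between 0 and 1 FPKM in 5, and exceeded 100 FPKM in 6. A handful of cells thus held most of the transcript: the 5 highest cells took 69.4% of the summed FPKM. The 6 cells above 100 FPKM were C89 (473 FPKM), C79 (396), C01 (362), C95 (322), C92 (137) and C93 (119).

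Several of those 6 were cells with few detected genes. In the 7 few-gene cells T had a median of 119 FPKM and was detected in 5, while in the other 41 cells it had a median of 1.36 FPKM and was detected in 21. Over all cells, the level of T had rho = -0.014 with the number of detected genes and 0.08 with the label number. The part of gene number in these levels was not tested.

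Eomes (chromosome 9, 118478212 to 118486132, plus strand, protein coding) was detected in 35 cells, or 72.9% (58.2% to 84.7%). The lowest cell was at 0, the median cell at 28.2 FPKM and the highest, C18, at 211 FPKM. The middle of the cells lay between quartiles of 0.374 and 73 FPKM. Cells C80 (201 FPKM) and C07 (189 FPKM) came next. The 5 highest cells took 38.8% of the summed FPKM, against 69.4% for T. Among the cells in which it was detected, the median was 55.5 FPKM for Eomes and 39 FPKM for T. The 3′ end of Eomes overlaps an antisense gene, Gm33460, over 574 bases on the annotation; that gene had no row of its own in the table.

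Mixl1 (chromosome 1, 180693043 to 180697034, minus strand, protein coding), a paired-type homeodomain factor, was detected in 30 cells, or 62.5% (47.4% to 76%). It was the member with the highest peak levels. Its values went from 0 up to 603 FPKM in cell C19, followed by 512 FPKM in C04 and 433 FPKM in C42, and 14 cells exceeded 100 FPKM. Its median was 21.6 FPKM, and 16 cells listed it at 0. Only 2 cells lay between 0 and 1 FPKM. Mixl1 reached 1 FPKM in 11 of 23 cells with label numbers above 48 and in 19 of 25 up to 48, with medians of 0 and 41.6 FPKM. The estimated number of fragments had rho = 0.21 with the label number over the 48 cells. The part of depth in that gap was not tested.

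Lhx1 (chromosome 11, 84518284 to 84525535, minus strand, protein coding), a LIM homeodomain factor, was detected in 38 cells, or 79.2% (65% to 89.5%), the broadest detection of the 6. The lowest cell was at 0 and the median cell at 14.3 FPKM, between quartiles of 2.15 and 41.3 FPKM. The highest was C80 with 114 FPKM. Cell C93 had 112 FPKM and C48 87.3 FPKM. Lhx1 was present in all 7 few-gene cells, at 3.20 to 112 FPKM.

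Evx1 (chromosome 6, 52313498 to 52318378, plus strand, protein coding), a homeodomain factor related to even-skipped of Drosophila, was detected in 13 cells, or 27.1% (15.3% to 41.8%). The values of those cells lay between 1.22 and 32.2 FPKM, their median at 10.6 FPKM, and 31 cells listed it at 0. Evx1os, an antisense RNA gene on the opposite strand (52308389 to 52314832), overlaps the first 1335 bases of Evx1, the start of the gene in the window above included. Its row carries the older name 5730457N03Rik, and 17 cells had it at 1 FPKM or more, the highest at 46.6 FPKM. The 2 genes were detected together in 8 cells, Evx1 alone in 5 and Evx1os alone in 9, with rho = 0.38 (Pearson's r = 0.43 on the log2 scale). Strand use in counting is not given in the sources used here, so reads from the overlap cannot be assigned to either gene.

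Gsc (chromosome 12, 104471209 to 104473330, minus strand, protein coding), a paired-type homeodomain factor that represses transcription, was detected in 10 cells, or 20.8% (10.5% to 35%). It was also the weakest member. The cells with Gsc had between 2.44 and 20.7 FPKM, with a median of 7.12 FPKM, and 35 cells listed it at 0. Its highest values were 20.7 FPKM in cell C87, 13.9 FPKM in C39 and 11.7 FPKM in C80.

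**Figure D1:**
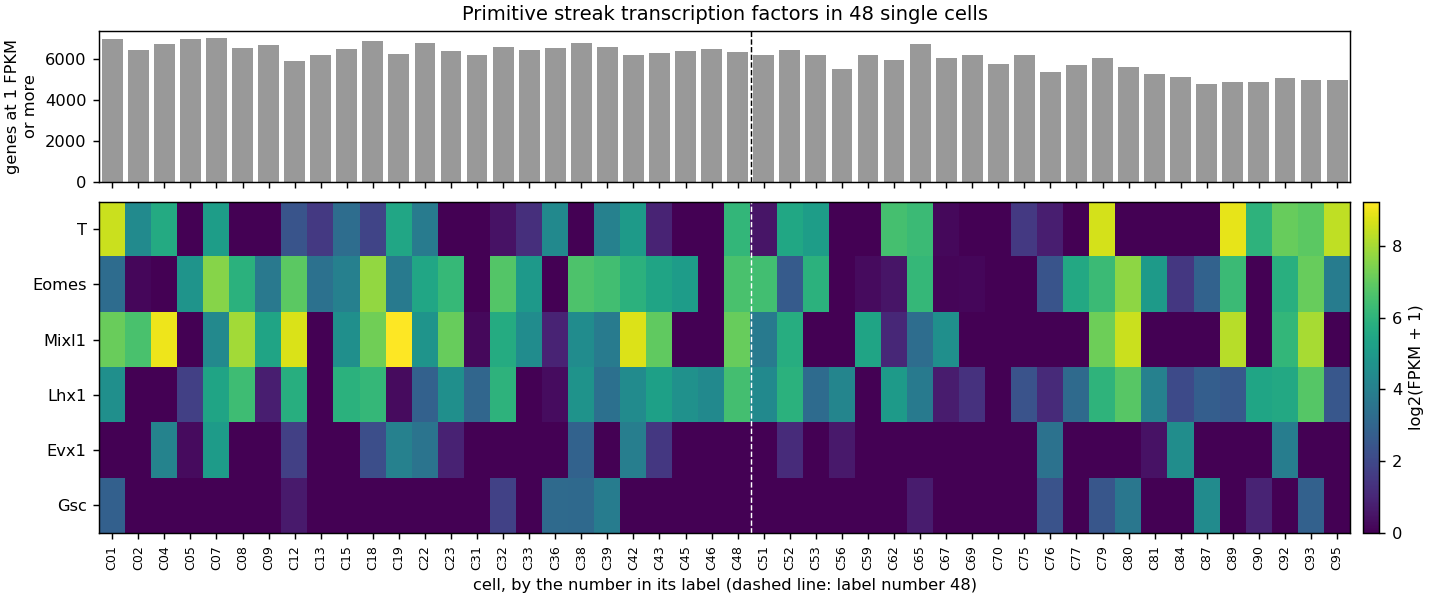
Levels of the 6 genes in every cell as log2(FPKM + 1), with cells from left to right by the number in their label, and above them the number of genes at 1 FPKM or more as bars from 0. Most cells hold Eomes and Lhx1, the brightest T values include cells at the far right with the fewest detected genes, and Evx1 and Gsc are dark in most cells.

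Ordered by median, the members ran Eomes, Mixl1, Lhx1, T, and then Evx1 and Gsc at 0. The quartile ranges of the first 4 overlap widely. Within cells, Eomes was above Lhx1 in 32 cells and below it in 14, and Eomes was above T in 29 and below it in 15. Mixl1 and Lhx1 could not be ordered in this way, each being higher in 23 cells. The same held nearly for Eomes and Mixl1, with Eomes higher in 20 cells and Mixl1 in 23. Evx1 exceeded Gsc in 16 cells and fell below it in 11, and the 2 were equal, at 0, in 21.

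**Figure D2:**
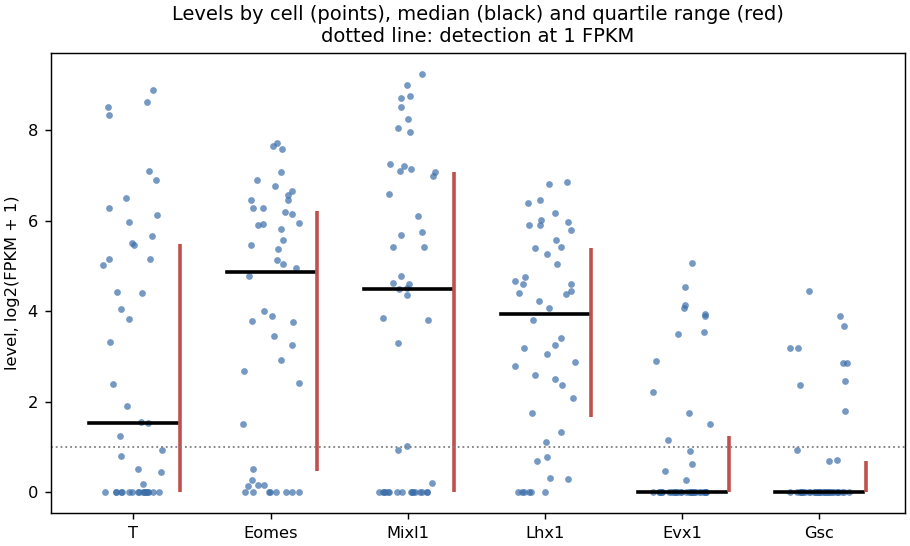
Level of each gene on the vertical axis as log2(FPKM + 1), with 1 point per cell, the median as a black line and the quartile range as a red line; the dotted line marks 1 FPKM. The ranges of T, Eomes, Mixl1 and Lhx1 overlap, while Evx1 and Gsc have medians of 0.

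Relatives of the members were mostly below the detection threshold. Of 14 other T-box genes, 3 were detected in at least 12 cells: Mga in 45, Tbx3 in 27 and Tbx6, a factor of presomitic mesoderm, in 13. Another 7 were below 1 FPKM in every cell, among them Tbr1, a close relative of Eomes. Of 9 homeobox relatives of Lhx1, Evx1 and Gsc, 0 reached 12 cells and 5 were below 1 FPKM throughout. Lhx2 came nearest, with 6 cells, Evx2 was detected in 1 cell, and Lhx5 and Gsc2 in none. Of the partners of LIM homeodomain factors, Ssbp3 was detected in 48 cells, Rlim, a ubiquitin ligase that limits them, in 41, and the adaptor Ldb1 in 35.

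The members occurred in many combinations. The 48 cells showed 24 patterns of detected members, 14 of them in a single cell. The most frequent pattern, T, Eomes, Mixl1, Lhx1 and Evx1 without Gsc, was in 7 cells, and 0 of 48 cells held all 6, which by the limit of 3 counts allows a share of up to 6.25% (exact interval 0 to 7.397%). A cell held a median of 3 members: 12 cells had 5, 9 had 4, 10 had 3, 10 had 2, 6 had 1 and cell C70 had 0. C70 had 74.5 FPKM of Mesp1. T, Eomes, Mixl1 and Lhx1 were detected together in 15 cells, or 31.2% (18.7% to 46.3%). The number of members rose only weakly with the number of detected genes (rho = 0.22).

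Eomes and Lhx1 were the pair that occurred together most. Of the 35 cells with Eomes, 31 also had Lhx1 (88.6%, 73.3% to 96.8%), and of the 13 without it 7 did (53.8%, 25.1% to 80.8%). Mixl1 was detected in 25 of 35 cells with Eomes (71.4%, 53.7% to 85.4%) and in 5 of 13 without (38.5%, 13.9% to 68.4%). It was in 20 of 26 cells with T (76.9%, 56.4% to 91.0%) and in 10 of 22 without (45.5%, 24.4% to 67.8%). The intervals overlap in each of these 3 comparisons. Lhx1 was in 20 of 26 cells with T (76.9%) and in 18 of 22 without (81.8%). Most cells with Evx1 or Gsc also had Eomes: 12 of 13 with Evx1, against 23 of 35 without it, and 9 of 10 with Gsc, against 26 of 38 without it. Evx1 and Gsc shared 2 cells: 2 of 13 cells with Evx1 had Gsc (15.4%), and 8 of 35 without it did (22.9%).

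**Figure D3:**
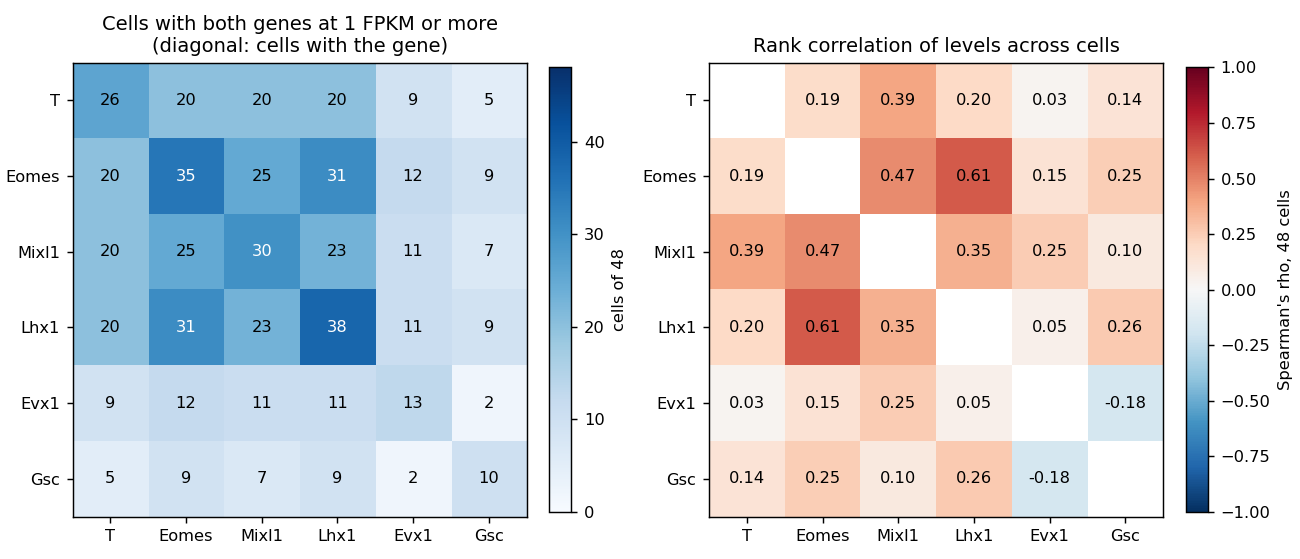
Left, number of the 48 cells in which both genes of a pair reached 1 FPKM, with each gene's own number on the diagonal; right, Spearman's rho of their levels over 48 cells on a scale from -1 to 1. Eomes and Lhx1 share 31 cells and have rho = 0.61, and Evx1 and Gsc share 2 cells and have rho = -0.18.

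Levels of the members rose together in part of the pairs. Of the 15 pairs, 14 had a rho above 0 and 4 reached 0.3, against 2.89% of 34740280 pairs among 8336 genes detected in at least 12 cells. The median rho was 0.20 over the members' pairs and 0.018 over those of all genes. The members were chosen with earlier results of these data known, so this comparison is a description only. Gsc, detected in 10 cells, is not among the 8336 genes. All values of a cell come from 1 library, so pairs share its depth and its number of detected genes, and the correlations are descriptions over cells. Eomes and Lhx1 had rho = 0.61 (Pearson's r = 0.57 on log2(FPKM + 1), and 0.56 without the 2 cells farthest from the median of Eomes). Their relation was seen at label numbers above 48 (rho = 0.56) and up to 48 (rho = 0.70). Among the 31 cells that had both genes, rho was 0.59.

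Eomes and Mixl1 had rho = 0.47 (r = 0.47, and 0.53 without 2 cells), with 0.60 above label number 48 and 0.25 up to it. Among the 25 cells with both, rho was 0.10. T and Mixl1 had rho = 0.39 (r = 0.35, and 0.28 without 2 cells), 0.44 above label number 48 and 0.45 up to it, but 0.13 among the 20 cells with both. Mixl1 and Lhx1 had rho = 0.35 (r = 0.30, and 0.45 without 2 cells), with 0.49 and 0.22 above and up to label number 48, and 0.38 in the 23 cells with both. For Mixl1 with T and with Eomes, rho was thus lower among cells with both genes than over all cells. T and Eomes, the 2 T-box members, had rho = 0.19. That value was 0.37 above label number 48 and -0.022 up to it.

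For the induced gene, Mesp1, rho with the members over all cells ran from -0.19 with T to 0.16 with Evx1, with 0.009 for Eomes and 0.024 for Lhx1. Cells with high and with low label numbers gave different values. Above label number 48 rho was -0.55 with T, -0.56 with Mixl1 and -0.39 with Eomes, and up to 48 it was 0.13, 0.26 and 0.44. The difference was not tested. Without the 7 few-gene cells, all of which have label numbers above 48, rho with T was -0.013. The table does not separate the inducible copy of Mesp1 from the endogenous gene.

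Genes of signalling and of cell types were then set beside the members. The gene lists were chosen with earlier results of these data known, so the comparison with all genes is a description only. The share given for list genes counts both directions of rho, while the shares of all genes are given for each direction separately. Of the genes on these lists, 55 were detected in at least 12 cells, which gave 330 relations, and 52 of them (15.8%) had a rho of at least 0.3 in size, 37 positive and 15 negative. For comparison, a rho of 0.3 or more was reached with T by 2.42% of the other genes detected in at least 12 cells, with Eomes by 3.23%, with Mixl1 by 3.49%, with Lhx1 by 1.86%, with Evx1 by 2.23% and with Gsc by 1.58%. A rho of -0.3 or less was reached with T by 3.61%, with Eomes by 2.05%, with Mixl1 by 2.15%, with Lhx1 by 2.24%, with Evx1 by 1.8% and with Gsc by 3.05%.

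Among the signals, 3 of 6 ligands were detected in at least 12 cells. Wnt3, an inducer of the streak, was detected in 25 cells and had rho = 0.31 with both Mixl1 and Evx1, though 0.11 with Mixl1 above label number 48 and 0.084 with Evx1 up to it. Bmp4, a ligand of the posterior streak and extraembryonic tissue, had rho = -0.35 with Eomes, and -0.26 and -0.27 above and up to label number 48. Nodal itself was detected in 8 cells and Wnt3a in 1. Of 5 antagonists, Fst, which binds activin, had rho = 0.38 with Mixl1 (0.45 above and 0.23 up to label number 48). Lef1, a transducer of WNT signals, had rho = -0.38 with Gsc (-0.47 and -0.34).

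Tdgf1, the Nodal co-receptor, had a rho of 0.3 or more with 4 of the 6 members. It was detected in 30 of 35 cells with Eomes (85.7%, 69.7% to 95.2%) and in 3 of 13 without (23.1%, 5.04% to 53.8%). Its rho with Eomes was 0.76 (r = 0.66, and 0.67 without 2 cells), 0.70 above label number 48 and 0.85 up to it. With Mixl1 it was 0.59 (0.40 and 0.56 above and up to 48), with Lhx1 0.41 (0.39 and 0.47) and with T 0.34 (0.45 and 0.19). With Evx1 it was 0.22 and with Gsc 0.26. The annotation also lists pseudogene copies of Tdgf1, and how reads shared with them were assigned is not given in the sources used here. Foxh1, the nuclear partner of Nodal signals, was detected in 47 cells and had a rho below 0.3 in size with every member over all 48 cells. Its highest was 0.28 with Lhx1, which was -0.029 above label number 48, 0.58 up to it and 0.35 without the 7 few-gene cells.

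Of 10 other streak and nascent mesoderm genes, 9 were in at least 12 cells. Otx2, an anterior homeobox gene, had rho = 0.67 with Eomes (0.66 above and 0.64 up to label number 48), 0.42 with Lhx1 and 0.41 with Gsc. Of the cells with Eomes, 22 of 35 had Otx2, against 2 of 13 without. Of 10 cells with Gsc, 8 had Otx2, which was detected in 24 of all 48 cells. Foxa2, of anterior streak, node and endoderm, was detected in 12 cells and had rho = 0.41 with T and 0.36 with Gsc. The relation with T was 0.61 above label number 48 and 0.13 up to it. Sp5, a WNT target, had rho = 0.37 with Eomes and 0.35 with Lhx1, and Cyp26a1, which degrades retinoic acid, had 0.33 with Eomes. Hoxb1 ran the other way, with rho = -0.38 with T, -0.35 with Eomes and -0.39 with Gsc. Without the 7 few-gene cells its rho with T was -0.27. Of the LIM partners, Ssbp3 had rho = 0.39 with Lhx1 (0.48 above and 0.34 up to label number 48) and 0.32 with Mixl1. Over the 3 partners, rho with Lhx1 had a median of 0.050 and a lowest value of -0.24. Ldb1 had -0.32 with Gsc.

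Of 5 epithelial genes detected in at least 12 cells, 4 had a rho of 0.3 or more with T, 2 with Eomes, 2 with Gsc and 0 with Mixl1, Lhx1 or Evx1. The claudin Cldn6 had rho = 0.55 with T (r = 0.60, and 0.55 without 2 cells), E-cadherin (Cdh1) 0.51, Krt18 0.44 and Krt8 0.38. Above and up to label number 48, Cldn6 with T had 0.73 and 0.35, Krt18 0.58 and 0.28, and Krt8 0.46 and 0.36. With Eomes, Krt8 had 0.33 and Epcam 0.30, and without the 7 few-gene cells these were 0.28 and 0.24. Above and up to label number 48, Krt8 with Eomes had 0.54 and 0.17, and Epcam with Eomes had 0.094 and 0.35. Krt8 had 0.33 with Gsc (0.47 and 0.22 above and up to 48), and Krt18 had 0.30 (0.41 and 0.14). Cdh1 was detected in 13 of 26 cells with T (50%, 29.9% to 70.1%) and in 5 of 22 without (22.7%, 7.82% to 45.4%). Its rho with T was 0.79 above label number 48 and 0.33 up to it. Of 6 mesenchymal genes, N-cadherin (Cdh2) also rose with T (rho = 0.38), as it did with Evx1 (0.37) and Lhx1 (0.32). The others were lower with T: Vim had 0.17, Twist1 -0.076, Fn1 -0.21, Cdh11 -0.21 and Zeb2 -0.23. Over the 6 genes, the median rho was -0.14 with T, -0.14 with Lhx1 and 0.15 with Evx1. Vim had rho = -0.35 with Gsc, and Fn1 had 0.35 with Evx1. Above and up to label number 48, Cdh2 with Lhx1 had 0.089 and 0.41, and Vim with Gsc had -0.60 and -0.077.

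Of 6 pluripotency genes detected in at least 12 cells, Pou5f1 (rho = 0.41 with T, 0.35 with Mixl1) and Nanog (0.41 with Eomes) reached 0.3. Pou5f1 with T had 0.58 above and 0.23 up to label number 48, and with Mixl1 0.29 and 0.12. Each of the other 4, among them Sox2 and Dnmt3b, stayed below 0.3 in size with every member. Of the 4 housekeeping genes, Hprt had rho = 0.44 with Eomes and Actb had -0.33 with T, which was -0.24 without the 7 few-gene cells, -0.59 above label number 48 and 0.16 up to it. Relations of this size therefore also occurred with genes of no cell type.

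Of 5 cardiac and lateral plate genes detected in at least 12 cells, Isl1, Pdgfra and Hand1 had a rho of -0.3 or less with a member, Gata6 had one of 0.3 or more, and Gata4 reached neither. Isl1, a factor of cardiac progenitors, had rho = -0.46 with Mixl1, -0.38 with T and -0.34 with Eomes. Above label number 48 these were -0.57, -0.60 and -0.45, and up to it they were -0.15, -0.022 and -0.085. Pdgfra, a receptor of mesoderm, had rho = -0.46 with T and was detected in 13 of 26 cells with T (50%) and in 18 of 22 without (81.8%). That rho was -0.66 above label number 48 and -0.22 up to it. Without the 7 few-gene cells it was -0.26, and for Isl1 with T it was -0.22. Gata6 had rho = 0.32 with Eomes (0.19 above and 0.41 up to label number 48) and 0.34 with Mixl1 (0.24 and 0.40). Hand1 had -0.33 with Gsc (-0.60 and -0.072). Of the paraxial genes, Aldh1a2, which makes retinoic acid, had rho = -0.48 with Eomes (-0.30 above and -0.54 up to label number 48). The paraxial genes did not share this: over the 3 in at least 12 cells, the median rho with Eomes was -0.008. The highest was 0.14, with Tbx6. Aldh1a2 was found in 12 of 35 cells with Eomes (34.3%) and in 9 of 13 without (69.2%).

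Of the list genes, Etv2, the ETS factor of the hemangiogenic programme, had the highest rho with Evx1, at 0.51 (r = 0.52, and 0.55 without 2 cells). It was 0.50 above and 0.55 up to label number 48. Over the 3 hemangiogenic genes in at least 12 cells, rho with Evx1 had a median of 0.26 and a lowest value of -0.038. Etv2 was found in 12 of 13 cells with Evx1 (92.3%, 64.0% to 99.8%) and in 14 of 35 without (40%, 23.9% to 57.9%). With the other 5 members Etv2 had a rho between -0.15 and 0.27, with -0.24 above and 0.69 up to label number 48 for T, and 0.079 and 0.54 for Mixl1. Tbx3 had rho = 0.38 with Evx1 (0.58 above and 0.28 up to label number 48) and -0.34 with Gsc (-0.18 and -0.55). Of 13 cells with Evx1, 11 had Tbx3, against 16 of 35 without; it was found in 2 of 10 with Gsc, against 25 of 38 without.

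**Figure D4:**
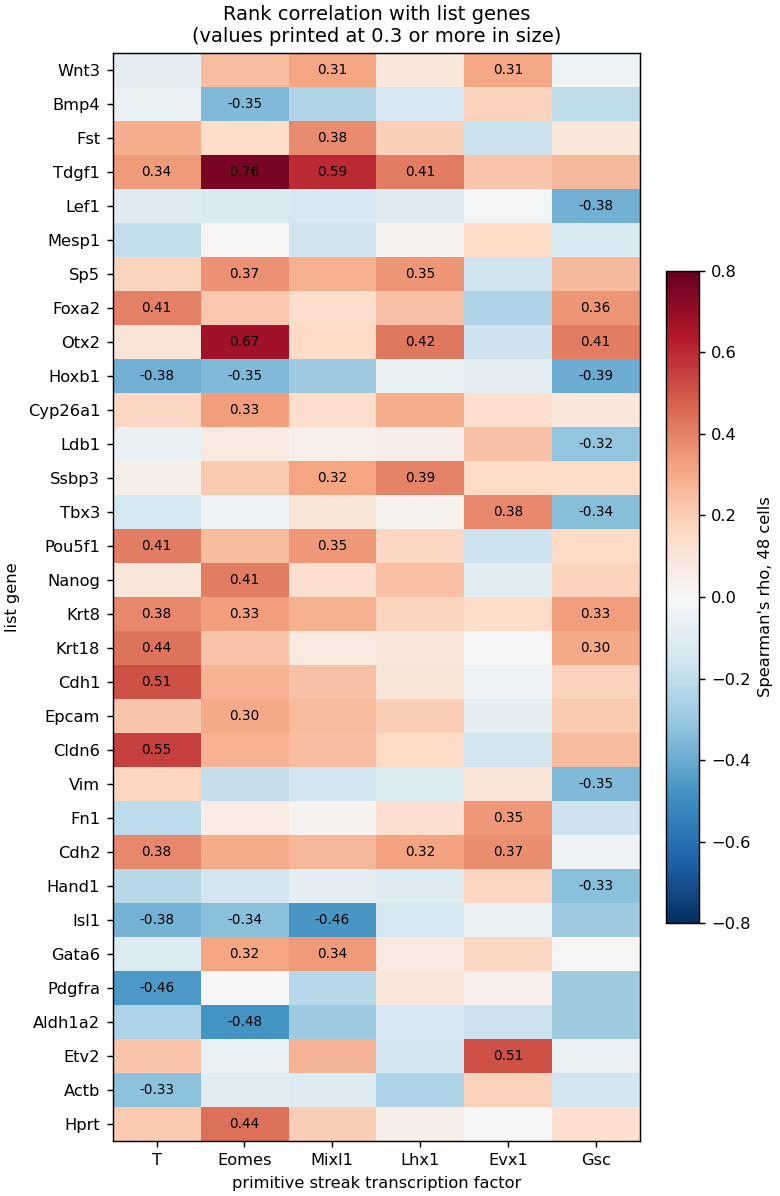
Spearman's rho over 48 cells between each member (columns) and the list genes (rows) that reached 0.3 in size with at least 1 member, plus Mesp1; red is positive and blue negative. Tdgf1 reaches 0.3 with 4 members and is highest with Eomes, the epithelial genes are reddest under T, and Isl1, Pdgfra and Aldh1a2 are blue under T, Eomes or Mixl1.

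**Figure D5:**
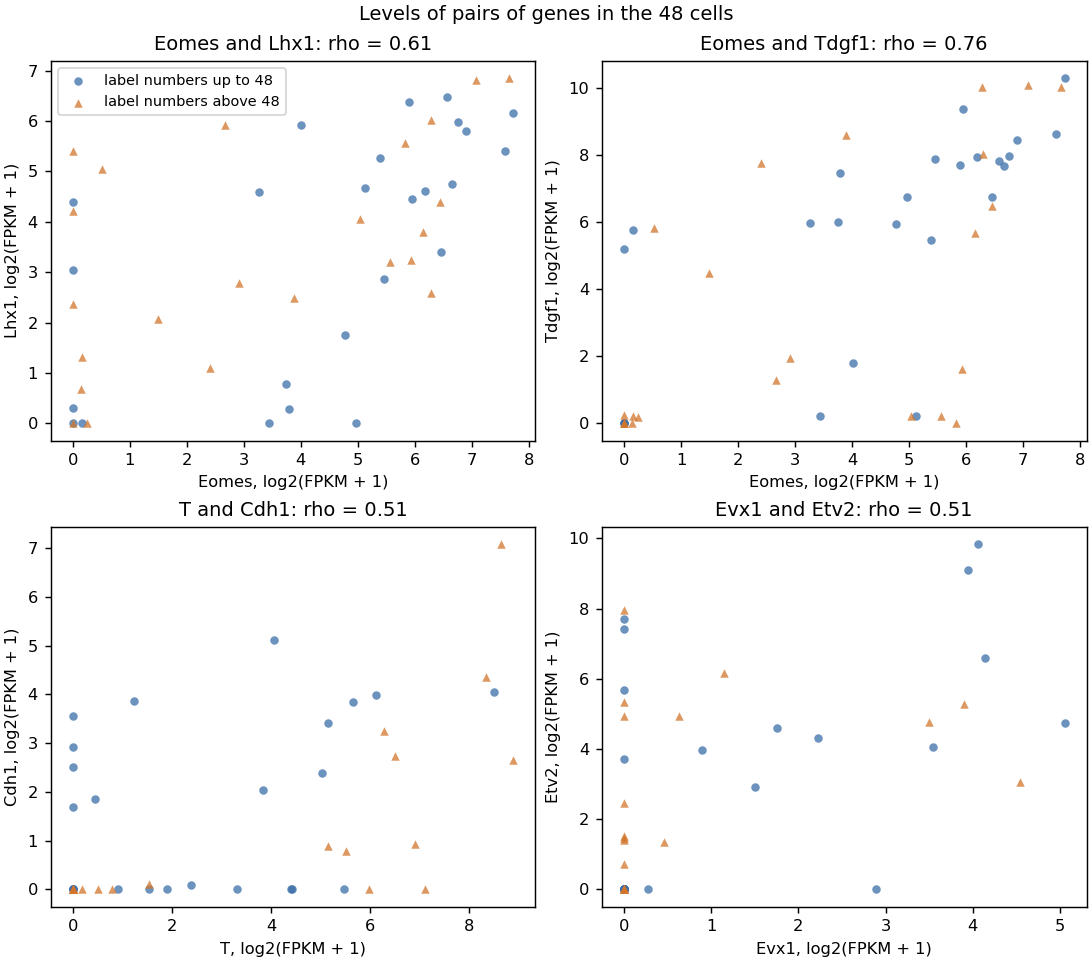
Levels of 4 pairs of genes as log2(FPKM + 1), with 1 point per cell, circles for label numbers up to 48 and triangles above. Eomes rises with Lhx1 (rho = 0.61) and Tdgf1 (0.76), T with Cdh1 (0.51) and Evx1 with Etv2 (0.51), each with cells that hold 1 gene of the pair without the other.

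Among all genes detected in at least 12 cells, the 5 with the highest rho over 48 cells were also listed for each member, as a description. For Eomes they were Tdgf1, Otx2, Lhx1, the fatty acid oxidation enzyme Acadm (0.61) and the membrane glycoprotein Emb (0.61). For Lhx1 they were Eomes, the mitochondrial channel Vdac3 (0.49), Ccdc76 (0.47), B3galnt1 (0.47) and Ppap2c (0.46). Eomes and Lhx1 were thus each in the other's list. For Mixl1 they were Tdgf1, the interferon regulatory factor Irf1 (0.56), Ninj1 (0.53), the insulin-degrading enzyme Ide (0.52) and the ornithine aminotransferase Oat (0.50).

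For T the list held the uridine phosphorylase Upp1 (rho = 0.58, with 0.75 above and 0.32 up to label number 48), Zcchc18 (0.58), Cldn6, the diacylglycerol kinase Dgkk (0.54) and the epithelial protease inhibitor Spint1 (0.53). Upp1 reached 1 FPKM in 40 cells, and its highest value was 816 FPKM. For Evx1 it held Fam65a (0.55), the homeobox gene Msx2 (0.52), the purine synthesis enzyme Atic (0.51), Etv2 and Arhgef17 (0.50). For Gsc, which rests on 10 cells, it held the amino acid transaminase Bcat2 (0.53), the sorting nexin Snx3 (0.52), the adaptor Grb7 (0.52), the ribonuclease Zc3h12a (0.47) and Scfd1 (0.46).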

How the data were processed

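RNA of 48 single cells was measured, and the authors deposited 1 table with a column per cell. Their unit is not named and was taken to be FPKM, since the values are fractional and Cufflinks 2.2.1.0 stands among the tools of the authors, per the submitters' processing notes. CASAVA 1.8.2, TopHat 0.7 and mm10 are listed there too. The sources used here do not give annotation, filters or strand use. Rows of 240 repeated symbols were summed.

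Shares have exact Clopper-Pearson 95% intervals. Spearman's rho used FPKM, and Pearson's r used log2(FPKM + 1). Depth was estimated from the smallest step of FPKM times length over single-transcript genes longer than 2500 bases of GENCODE M21 (GRCm38). The procedures were tested on simulated data (Python 3.11.15, SciPy 1.17.1). No cell was removed and no doublet caller was run, since the table holds no counts. Alternatives changed the detection threshold, pseudocount, scaling, covariates and cells.

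Named genes were the members, Mesp1, overlapping genes, up to 4 genes per member and list with a rho of at least 0.3 in size among genes detected in at least 12 cells, and the 5 with the highest rho with each member, short RNAs left out. Members and lists were chosen with earlier results of these data known. Other list genes named, such as Tbr1, Nodal, Foxh1 and the markers in the opening, were chosen after their values were seen.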

Additional observations from a re-analysis of the deposited data

How the results depend on the processing

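Detection moved outside its interval in 2 cases, both at a threshold of 10 FPKM: Lhx1 in 52.1% of cells and Gsc in 6.25%. At that threshold 20.8% of cells had 4 or more members, against 43.8% at 1 FPKM, and 12.5% had T, Eomes, Mixl1 and Lhx1 together. Rescaling each cell to 1000000 without short RNA rows gave medians of 3.51 for T, 48.9 for Eomes, 37.1 for Mixl1 and 24.7 for Lhx1, and left the 4 pairs at a rho of 0.3 or more. The 4 pairs also kept 0.3 after regression on the number of detected genes or on the label number, and without the 7 few-gene cells, while up to label number 48 only T with Mixl1 and Eomes with Lhx1 did. Above label number 48 the median rho of the 15 pairs was 0.37 and 8 pairs reached 0.3, against 0.17 and 4 pairs up to 48. The share of all gene pairs at 0.3 was computed over the 48 cells only, so these counts have no such share beside them. In cells with at least 1 gene of the pair, the median was 0.049 and 2 pairs reached 0.3. Leaving out the cells with neither gene of a pair is the only change in that setting. Its lower values therefore cannot be read apart from that choice of cells. Of 52 relations with list genes, 39 kept 0.3 in the same direction without the few-gene cells; among those lost and not given above were T with Tdgf1 (0.297), Mixl1 with Pou5f1 (0.27), Evx1 with Wnt3 (0.18), Tbx3 (0.24) and Fn1 (0.28), and Gsc with Ldb1 (-0.29) and Hand1 (-0.28). Above label number 48, 39 of the 52 kept it, and up to 48, 31 did. Of the 330 relations, 100 reached 0.3 in size above 48, over 23 cells, and 73 up to 48, over 25 cells. The share over all genes was not computed in either part. Of the 52, T with Actb alone changed sign, to 0.16 up to label number 48; the cause was not tested. No paired analysis was possible because there is 1 group. The labels name no separate preparations, the depth is an estimate, and a gene listed at 0 may be expressed.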

Other observations

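Evx1os, the antisense neighbour of Evx1, had rho = 0.40 with Mixl1 over the 48 cells, and Mixl1 had 0.25 with Evx1. Its rho with Evx1 was 0.39 above label number 48 and 0.38 up to it. The part of reads from the overlap of the 2 genes was not tested.

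The estimated number of fragments did not rise with the number of detected genes over the 48 cells (rho = -0.33), and its highest value was 1.63 times its lowest.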
